A study of Mus musculus with 2 samples.

Results

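The genes described here are the ephrins, their Eph receptors, the semaphorins, the plexins and the neuropilins, 53 of the 31053 genes counted in the single-cell libraries. They were taken by symbol, so that every gene named Epha or Ephb with a number, Efna or Efnb with a number, Sema with a class number and a letter, a plexin of types A to D, Nrp1 or Nrp2 was a member. Of the 53 members, 9 were EphA receptors, 5 EphB receptors, 5 A-type ephrins, 3 B-type ephrins, 7 class 3 semaphorins, 13 semaphorins of classes 4 to 7, 9 plexins and 2 neuropilins. The rule uses no measured value.

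Ephrins are ligands held on the cell surface, A-type ephrins by a lipid anchor and B-type ephrins by a membrane span, and they bind Eph receptor tyrosine kinases on a neighboring cell, which often leads the cells or their processes to separate. Semaphorins are secreted or membrane-bound ligands that bind plexins, and most secreted class 3 semaphorins also need a neuropilin as co-receptor. Both families are known for axon guidance, tissue boundaries and vessel patterning, and in the inner ear for steering the fibers of the ganglion neurons that reach the hair cells (HCs).

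Sensory epithelia of the utricle, the balance organ that senses linear acceleration, were profiled by droplet-based scRNA-seq in WT mice at postnatal day 2 (P2) and at embryonic day 14 (E14), with 1 library at each age. At both ages the epithelium was detached with thermolysin, dissociated with Accutase and counted from the 3′ ends of transcripts with the 10x Genomics v3.1 kit, and by the general methods on tissue collection several animals of either sex went into each harvest. There were 57003553 UMIs (molecular tags counted once per captured transcript) over 6251 barcodes at P2 and 122892080 over 15636 barcodes at E14, and 23 barcodes occurred in both. After filtering, 3948 cells (median 9868 UMIs) remained at P2 and 10514 cells (median 6808 UMIs) at E14.

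Each library was clustered without the 53 members, and clusters were called by a cell type only where at least 3 of its markers stood out. Of 28 clusters at P2 and 31 at E14, 13 and 10 had no name, with 56.1% and 34.6% of the cells. HC-like cells numbered 919 at P2 (median 15493 UMIs, 8 clusters) and 171 at E14 (14438 UMIs, 2 clusters). Supporting cell (SC)-like cells, which resemble the cells that surround the HCs, numbered 690 at P2 (11488 UMIs, 4 clusters) and 1005 at E14 (6160 UMIs, 4 clusters). Pou4f3, an HC transcription factor and one of the markers used to name the clusters, had 825 CPM (UMIs per 1000000 UMIs of a class) in HC-like cells and 32.1 CPM in SC-like cells at P2. The E14 library also held 4048 mesenchymal-like cells, 402 glial-like, 332 immune-like, 116 endothelial-like, 57 pericyte-like, 51 melanocyte-like and 242 red blood cell-like cells, while P2 had 32 mesenchymal-like cells and no cluster of the other 6 types.

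With 1 library per age and cells that are not replicates, no difference has a replicate check, and no test was made. All intervals are exact 95% intervals for counting error only. A member was compared between 2 groups of cells where the higher group had at least 20 UMIs and 10 CPM, and a difference was called at a ratio of at least 2 or at most 0.5. Levels count captured 3′ ends and are compared for a gene between cells, not as amounts of full transcripts between genes. A lower CPM can come from fewer cells with the transcript or from less of it per cell.

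At E14, 47 members reached 20 UMIs and 10 CPM in at least 1 of the 10 named classes, and Efna3, Epha10, Epha6, Epha8, Sema3g and Sema4f did not. At P2, 32 members did so in the 4 named classes. The 21 below were Epha10, Epha2, Epha3, Epha6, Epha8, Ephb3, Ephb6, Nrp1, Plxna3, Plxnb3, Plxnc1, Plxnd1, Sema3a, Sema3d, Sema3f, Sema3g, Sema4a, Sema4f, Sema4g, Sema5b and Sema6c. Single classes held between 0 (P2 mesenchymal-like, E14 red blood cell-like) and 32 (E14 nonsensory epithelial-like) members at these minimums. These classes held 125917, 697421 and 6293760 UMIs, in that order. In the 2 smaller ones the 20 UMIs, not the 10 CPM, set the limit. In P2 mesenchymal-like cells even 3 UMIs over the class are 23.8 CPM. In such shallow classes the counts of members therefore also depend on depth, so the counts do not rank the classes by expression. HC-like cells held 17 at P2 and 19 at E14, and SC-like cells 26 and 27.

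**Figure D1:**
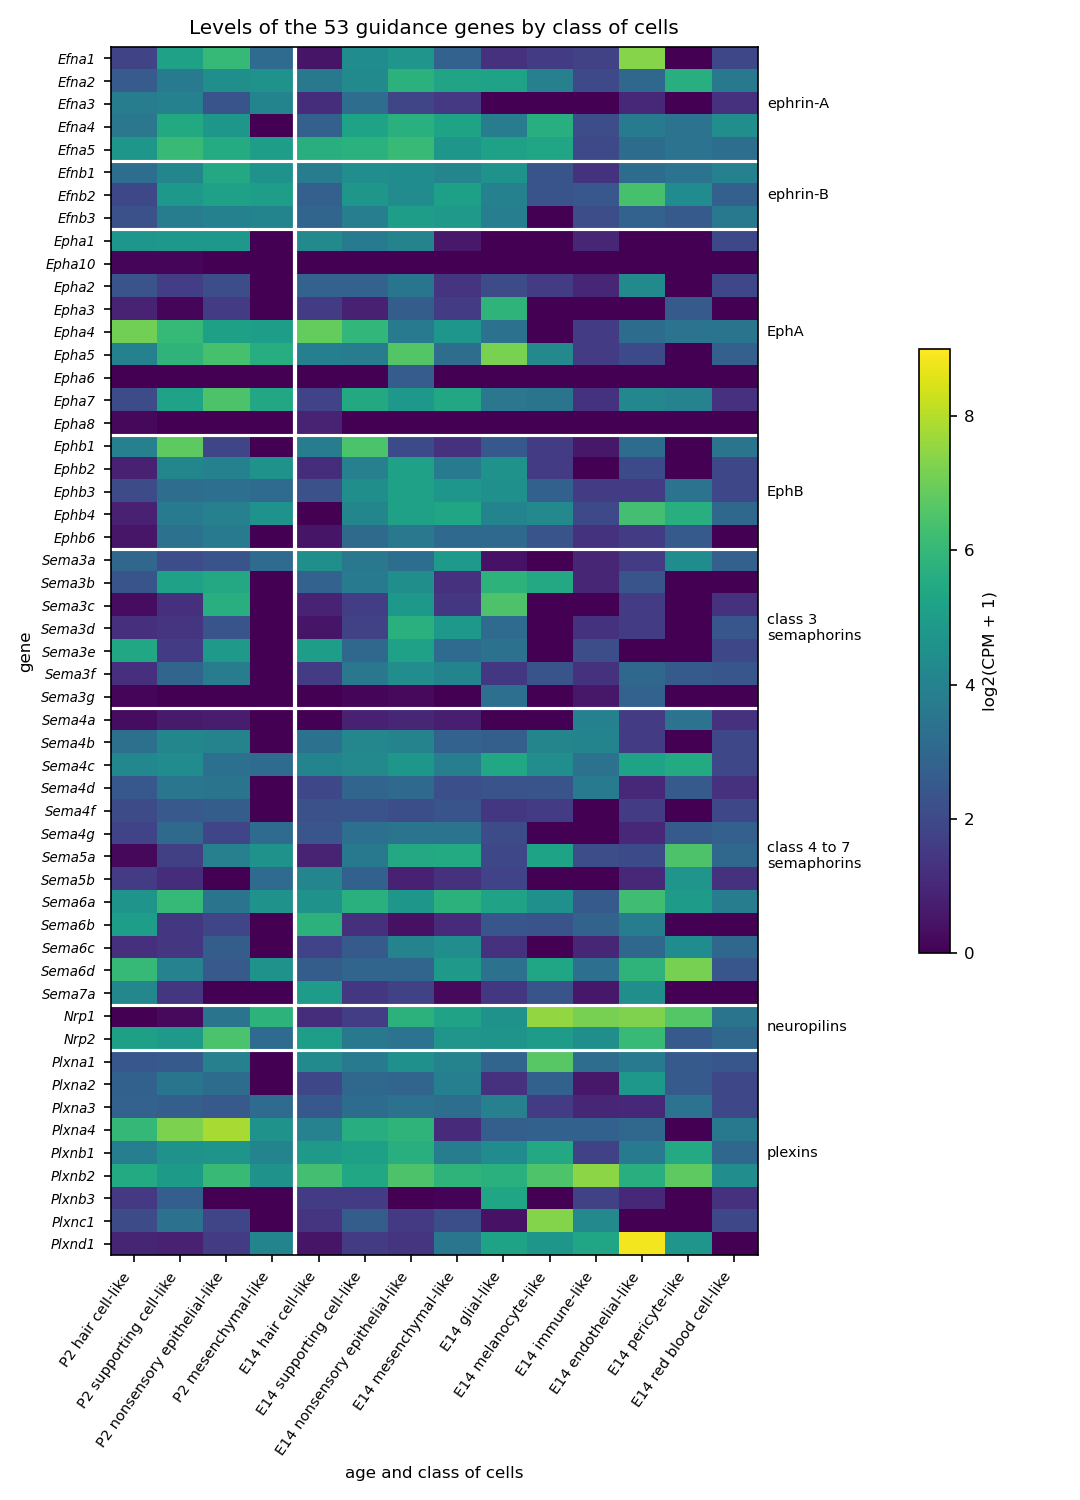
Level of each of the 53 genes as log2(CPM + 1), by color, in the named classes of cells at P2 and E14, with genes in rows grouped by role and classes in columns. Epha4 was the brightest Eph receptor of HC-like cells at both ages (136 CPM at P2 and 118 CPM at E14), Plxna4 the brightest gene of P2 nonsensory epithelial-like cells (226 CPM) and Plxnd1 that of E14 endothelial-like cells (463 CPM).

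HC-like and SC-like cells differed in most of the members that could be compared. At P2, 29 members were compared, of which 5 were at least 2-fold higher in HC-like cells and 15 at least 2-fold lower, that is 69.0% in either direction against 36.9% of the 9643 genes compared in the same way. At E14, 31 members were compared, 5 higher and 14 lower, that is 61.3% against 37.1% of 9656 genes. Among all genes the higher calls made up 18.9% and the lower calls 18.0% at P2, and 20.4% and 16.8% at E14. The median log2 ratio of the members was -1.21 at P2 and -0.69 at E14, beside 0.07 and 0.14 over all genes compared. By role, the 3 EphB receptors compared at P2 and the 4 at E14 were all lower in HC-like cells, while the higher calls at each age were mostly semaphorins.

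Epha4, an EphA receptor that also binds B-type ephrins, was the leading Eph receptor of the HC-like cells. It had 136 CPM (129.6 to 142) in HC-like cells and 64.0 CPM (59.5 to 68.7) in SC-like cells at P2, a ratio of 2.12 (1.95 to 2.31). At E14 it had 118 CPM (104 to 132) in HC-like cells and 60.7 CPM (56.3 to 65.4) in SC-like cells, a ratio of 1.94 (1.68 to 2.23), just short of the 2-fold limit. Without mitochondrial, ribosomal and haemoglobin genes in the totals, the log2 ratio at P2 was 0.97, also just short of that limit. Epha1, the second EphA receptor of HC-like cells by level, did not differ by 2-fold at either age, with 25.4 CPM in HC-like cells and 26.7 CPM in SC-like cells at P2 and 18.1 CPM in HC-like and 12.3 CPM in SC-like cells at E14. Epha7 and Epha5, receptors of A-type ephrins, were on the SC-like side at P2. Epha7 had 3.29 CPM in HC-like cells and 36.1 CPM in SC-like cells (ratio 0.0913, 0.0651 to 0.125) at P2, and 2.47 CPM in HC-like and 42.9 CPM in SC-like cells (0.0577, 0.0211 to 0.126) at E14. Epha5 had 14.4 CPM in HC-like cells and 56.4 CPM in SC-like cells at P2 (0.255, 0.216 to 0.301), but 13.6 CPM in HC-like and 13.0 CPM in SC-like cells at E14 (1.04, 0.693 to 1.53).

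EphB receptors, which bind the B-type ephrins, were low in HC-like cells at both ages. Ephb1, the EphB receptor with the highest level in SC-like cells, had 14.1 CPM (12.1 to 16.3) in HC-like cells and 108 CPM (102 to 114) in SC-like cells at P2, a ratio of 0.130 (0.111 to 0.152). At E14 its levels were 12.8 CPM (8.69 to 18.1) in HC-like cells and 87.4 CPM (82.1 to 93.0) in SC-like cells, a ratio of 0.146 (0.0989 to 0.209). Ephb2 had 10 UMIs (0.766 CPM) in HC-like cells and 16.5 CPM in SC-like cells at P2 (0.0463, 0.0219 to 0.0871), and 3 UMIs (1.24 CPM) in HC-like and 14.1 CPM in SC-like cells at E14 (0.0878, 0.0179 to 0.261). Ephb4, known in vessels as the venous receptor of ephrin-B2, likewise had 10 UMIs in HC-like cells at P2 and 12 CPM in SC-like cells (0.0638, 0.030 to 0.121). At E14 it had 0 UMIs in HC-like cells and 16.6 CPM in SC-like cells, which is 13.4-fold lower if the HC-like level is set to a floor of 3 UMIs over the class. Ephb3, the second EphB receptor of SC-like cells at E14, had 3.71 CPM in HC-like cells and 21.1 CPM in SC-like cells at that age (0.176, 0.0795 to 0.339).

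Most ephrins were also on the SC-like side. Of the A-type ephrins, 4 of 5 compared at P2 and 2 of 4 at E14 were at least 2-fold lower in HC-like cells, and of the B-type ephrins 2 of 3 at each age. With cells assigned one by one, Efna2 (log2 ratio -0.76), Efna4 (-0.99) and Efna5 (-0.63) were no longer 2-fold lower at P2. Efna1 had 2.60 CPM in HC-like cells and 34.5 CPM in SC-like cells at P2 (0.0755, 0.0516 to 0.107). At E14 Efna1 had 1 UMI in HC-like cells and 19.6 CPM in SC-like cells (0.0210, 0.000530 to 0.118). Efna5, the ephrin with the highest level in both classes, had 26.2 CPM in HC-like cells and 67.5 CPM in SC-like cells at P2 (0.388, 0.341 to 0.441), whereas at E14 it had 49.5 CPM in HC-like and 52.7 CPM in SC-like cells (0.939, 0.765 to 1.14). Efna4, the second A-type ephrin of SC-like cells, was lower in HC-like cells at both ages, with ratios of 0.252 (0.208 to 0.304) at P2 and 0.157 (0.0853 to 0.267) at E14. Efna2 passed the limit at P2 alone, with 4.98 CPM in HC-like cells and 11.7 CPM in SC-like cells (0.424), beside a ratio of 0.619 at E14. Efna3 differed little at P2, with 12.9 CPM in HC-like cells and 14.4 CPM in SC-like cells. Efnb2, known as the arterial ephrin, had 2.91 CPM in HC-like cells and 27.1 CPM in SC-like cells at P2 (0.107, 0.0746 to 0.151) and 5.77 CPM in HC-like and 26.0 CPM in SC-like cells at E14 (0.222, 0.120 to 0.378). Efnb3 was lower in HC-like cells with ratios of 0.281 at P2 and 0.492 at E14. Efnb1, the B-type ephrin with the highest level in HC-like cells, stayed within 2-fold at 0.512 at P2 and 0.632 at E14.

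A set of semaphorins stood on the HC-like side. Sema3e, a secreted ligand that binds plexin-D1 without a neuropilin, had 39.8 CPM (36.5 to 43.4) in HC-like cells and 2.01 CPM (1.29 to 3.00) in SC-like cells at P2, a ratio of 19.8 (13.1 to 31.2). At E14 the values were 32.2 CPM (25.4 to 40.2) in HC-like cells and 7.09 CPM (5.63 to 8.82) in SC-like cells, a ratio of 4.53 (3.28 to 6.27). Sema6b, a transmembrane ligand of plexin-A4, showed the largest ratio among the members at E14. It had 32.4 CPM (29.4 to 35.6) in HC-like cells and 1.76 CPM (1.09 to 2.69) in SC-like cells at P2 (ratio 18.4, 11.9 to 30), and 53.6 CPM (44.8 to 63.7) in HC-like and 1.4 CPM (0.801 to 2.28) in SC-like cells at E14 (38.3, 22.7 to 68.9). Sema7a, a lipid-anchored ligand of plexin-C1 and integrins, had 16.8 CPM (14.7 to 19.2) in HC-like cells and 1.68 CPM (1.02 to 2.59) in SC-like cells at P2 (10.0, 6.35 to 16.8), and 30.5 CPM (24.0 to 38.3) in HC-like and 1.75 CPM (1.07 to 2.71) in SC-like cells at E14 (17.4, 10.5 to 30.2). These 3 genes were at least 2-fold higher in HC-like cells under all 19 alternatives run for these ratios at both ages. Alternatives of fold and count minimum could not move a ratio, nor could leaving out clusters of the other age. Without the 2 SC-like clusters rich in Zpld1 at E14, the log2 ratios of Sema3e and Sema7a at that age were 3.91 and 5.21, against 2.18 and 4.12 with them.

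Sema6d, a transmembrane ligand of plexin-A1, was higher in HC-like cells at P2 alone, with 64.3 CPM (60.1 to 68.8) in HC-like cells and 15.0 CPM (12.9 to 17.4) in SC-like cells, a ratio of 4.28 (3.64 to 5.06). Without the P2 clusters 14 and 20, in which its level was highest, the log2 ratio was 0.48, below the 2-fold limit. At E14 it had 5.36 CPM in HC-like cells and 6.74 CPM in SC-like cells, below the minimum for a comparison. Sema5b, a transmembrane ligand of plexins A1 and A3, was higher at E14 alone, with 16.1 CPM in HC-like cells and 5.87 CPM in SC-like cells (2.74, 1.80 to 4.13), and had 2.07 CPM in HC-like cells at P2. Other semaphorins were lower in HC-like cells. Sema6a, a transmembrane ligand of plexins A2 and A4 and the leading semaphorin of SC-like cells, had 24.0 CPM in HC-like cells and 63.8 CPM in SC-like cells at P2 (0.377, 0.329 to 0.430), and 23.1 CPM in HC-like and 51.8 CPM in SC-like cells at E14 (0.446, 0.333 to 0.588). Sema3b, a secreted neuropilin ligand, had 4.06 CPM in HC-like cells and 34.1 CPM in SC-like cells at P2 (0.119, 0.0876 to 0.159), with a ratio of 0.494 at E14. Sema4d, a ligand of plexin-B1, was lower at P2, with 4.52 CPM in HC-like cells and 10.5 CPM in SC-like cells (0.431). With cells assigned one by one, Sema6a (log2 ratio -0.59) and Sema4d (-0.58) were no longer 2-fold lower at P2, and without a cell filter Sema4d (-0.96) was not. Sema3f, a neuropilin-2 ligand, and Sema5a were lower at E14. Sema3f had 2.06 CPM in HC-like cells and 11 CPM in SC-like cells (0.187, 0.0596 to 0.448), and Sema5a 2 UMIs in HC-like cells and 11.6 CPM in SC-like cells (0.0714, 0.00855 to 0.263). Sema3a, a neuropilin-1 ligand, had 21.4 CPM in HC-like cells and 11.1 CPM in SC-like cells at E14 (1.93). Sema4c, second to Sema6a in SC-like cells among the semaphorins of classes 4 to 7, had 17.4 CPM in HC-like cells and 19.3 CPM in SC-like cells at P2 and 15.7 CPM in HC-like and 18 CPM in SC-like cells at E14.

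The promoters of the 4 semaphorins that were higher in HC-like cells at P2 and had a promoter entry are shown because these genes share that side, with every CANNTG, the E-box core bound by basic helix-loop-helix factors, in capitals. The sequences are from RefSeq on GRCm38.p6, run from 250 bases before to 50 bases after an annotated start and are written 5′ to 3′ along the gene. CANNTG reads alike on both strands, and CAGCTG is 1 form of it.
Sema7a, chr9:57939862-57940161, plus strand: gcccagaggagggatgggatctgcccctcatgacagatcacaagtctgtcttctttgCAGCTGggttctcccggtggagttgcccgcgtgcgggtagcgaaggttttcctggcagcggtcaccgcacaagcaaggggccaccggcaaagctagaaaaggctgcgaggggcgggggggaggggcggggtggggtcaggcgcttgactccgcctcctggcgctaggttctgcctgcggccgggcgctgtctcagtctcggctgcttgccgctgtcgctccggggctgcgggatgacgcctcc
Sema6b, chr17:56140294-56140593, minus strand: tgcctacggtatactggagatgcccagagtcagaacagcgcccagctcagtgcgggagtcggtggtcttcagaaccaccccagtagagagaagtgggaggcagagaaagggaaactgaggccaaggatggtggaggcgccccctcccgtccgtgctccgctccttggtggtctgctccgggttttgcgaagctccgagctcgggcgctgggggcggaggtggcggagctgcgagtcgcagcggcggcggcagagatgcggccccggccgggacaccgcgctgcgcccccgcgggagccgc
Sema6b, further start, chr17:56133803-56134102, minus strand: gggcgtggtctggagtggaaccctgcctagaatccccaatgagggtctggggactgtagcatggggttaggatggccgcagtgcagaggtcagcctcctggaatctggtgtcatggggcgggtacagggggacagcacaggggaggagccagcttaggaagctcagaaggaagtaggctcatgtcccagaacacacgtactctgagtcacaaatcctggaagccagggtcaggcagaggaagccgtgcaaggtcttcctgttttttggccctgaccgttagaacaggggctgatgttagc
Sema3e, chr5:14025026-14025325, plus strand: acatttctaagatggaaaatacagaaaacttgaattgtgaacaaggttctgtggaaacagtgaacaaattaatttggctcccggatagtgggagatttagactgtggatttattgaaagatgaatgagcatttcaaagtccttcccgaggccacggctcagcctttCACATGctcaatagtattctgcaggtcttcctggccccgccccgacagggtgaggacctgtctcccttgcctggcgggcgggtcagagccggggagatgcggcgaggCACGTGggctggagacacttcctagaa
Sema6d, chr2:124089719-124090018, plus strand: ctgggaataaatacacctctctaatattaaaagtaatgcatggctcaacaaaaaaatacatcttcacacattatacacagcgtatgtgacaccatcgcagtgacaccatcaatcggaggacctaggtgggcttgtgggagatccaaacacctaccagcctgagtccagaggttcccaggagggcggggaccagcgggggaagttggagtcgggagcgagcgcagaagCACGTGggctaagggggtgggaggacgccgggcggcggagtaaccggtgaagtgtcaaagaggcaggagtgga
Sema6d, further start, chr2:124653331-124653630, plus strand: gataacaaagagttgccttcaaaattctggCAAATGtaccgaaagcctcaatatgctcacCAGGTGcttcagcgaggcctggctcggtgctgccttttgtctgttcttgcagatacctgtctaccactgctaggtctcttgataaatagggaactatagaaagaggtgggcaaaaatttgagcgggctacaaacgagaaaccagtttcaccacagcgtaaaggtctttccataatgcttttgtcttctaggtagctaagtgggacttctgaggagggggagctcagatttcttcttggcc
The Sema7a window held 1 E-box, of the form CAGCTG, beginning at base -193 before the start, and the Sema6b windows held none. The Sema3e window held 2, beginning at base -84 and at base 24 after the start. The Sema6d windows held 1 at base -23 and, for the further start, 2 at bases -220 and -190. CANNTG occurred in 72.3% of the 32851 mouse promoters of the same table and CAGCTG in 16.3%, and in 50.8% and 14.8% of the 61 promoters of the 47 members with an entry. The 2 Sema6b windows differed in their number of CG dinucleotides, with 29 at one start and 6 at the other. Efnb3, Plxna1, Plxna4, Sema3b, Sema3f and Sema6a were not matched in that table.

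Among the receptors of the semaphorins, Plxna4, the plexin with the highest level in SC-like cells, was lower in HC-like cells at both ages. It had 62.4 CPM (58.2 to 66.8) in HC-like cells and 147 CPM (140.2 to 154) in SC-like cells at P2, a ratio of 0.424 (0.390 to 0.462). At E14 its levels were 14.8 CPM (10.4 to 20.6) in HC-like cells and 48.3 CPM (44.3 to 52.5) in SC-like cells, a ratio of 0.308 (0.213 to 0.431). The P2 call was lost without a cell filter, with the mean over single cells, with cells assigned one by one and at equal depth. Plxnb2, a widely used receptor of class 4 semaphorins, leaned toward HC-like cells within 2-fold, with 44.4 CPM in HC-like cells and 29.1 CPM in SC-like cells at P2 (1.53) and 78.4 CPM in HC-like and 40.9 CPM in SC-like cells at E14 (1.92). Plxnb1, the receptor of Sema4d and second plexin of HC-like cells at E14, had 28.0 CPM in HC-like cells and 33.9 CPM in SC-like cells at that age. Nrp2, the co-receptor of Sema3f, had 33.8 CPM in HC-like cells and 27.7 CPM in SC-like cells at P2 (1.22, 1.06 to 1.41), and 31.8 CPM in HC-like and 11.4 CPM in SC-like cells at E14 (2.79, 2.08 to 3.73). Nrp1, the co-receptor of Sema3a, was near 0 in the sensory classes, with 0 UMIs in HC-like cells and 0.168 CPM in SC-like cells at P2 and 1.24 CPM in HC-like and 2.10 CPM in SC-like cells at E14. For the count of 0 in the P2 HC-like cells, a floor of 3 UMIs over the class is 0.230 CPM.

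The E14 contrast depended on which clusters were called HC-like. With a stricter cell filter the class held 6976380 UMIs in place of 2424528, and 11 of the 14 lower calls and 1 of the 5 higher calls, Nrp2, were no longer 2-fold apart. The same held with doublets kept for 13 of the 14 lower calls and again Nrp2, and with cells assigned one by one for 10 of the lower calls, Nrp2 and Sema5b. At equal depth 7 of the lower calls were lost, and Sema3b was also lost in further alternatives. The 12 SC markers summed to 783 CPM in HC-like cells and 6538 CPM in SC-like cells at P2 and to 418 CPM in HC-like and 3563 CPM in SC-like cells at E14. The 16 HC markers summed to 15412 CPM in HC-like and 656 CPM in SC-like cells at P2 and to 17614 CPM in HC-like and 682 CPM in SC-like cells at E14. The 9 red blood cell markers summed to 6.97 CPM in HC-like cells and 6.54 CPM in SC-like cells at P2 but to 1727 CPM in HC-like and 7064 CPM in SC-like cells at E14. Their part in the ratios was not tested. Without mitochondrial, ribosomal and haemoglobin genes in the totals, the median log2 ratio of all genes was -0.05 at P2 and -0.06 at E14 (0.07 and 0.14 with them), and the members split into 4 higher and 20 lower at P2 and 5 higher and 18 lower at E14. With the mean over single cells the split at E14 was 8 higher and 13 lower, that is 38.1% higher against 26.3%.

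**Figure D2:**
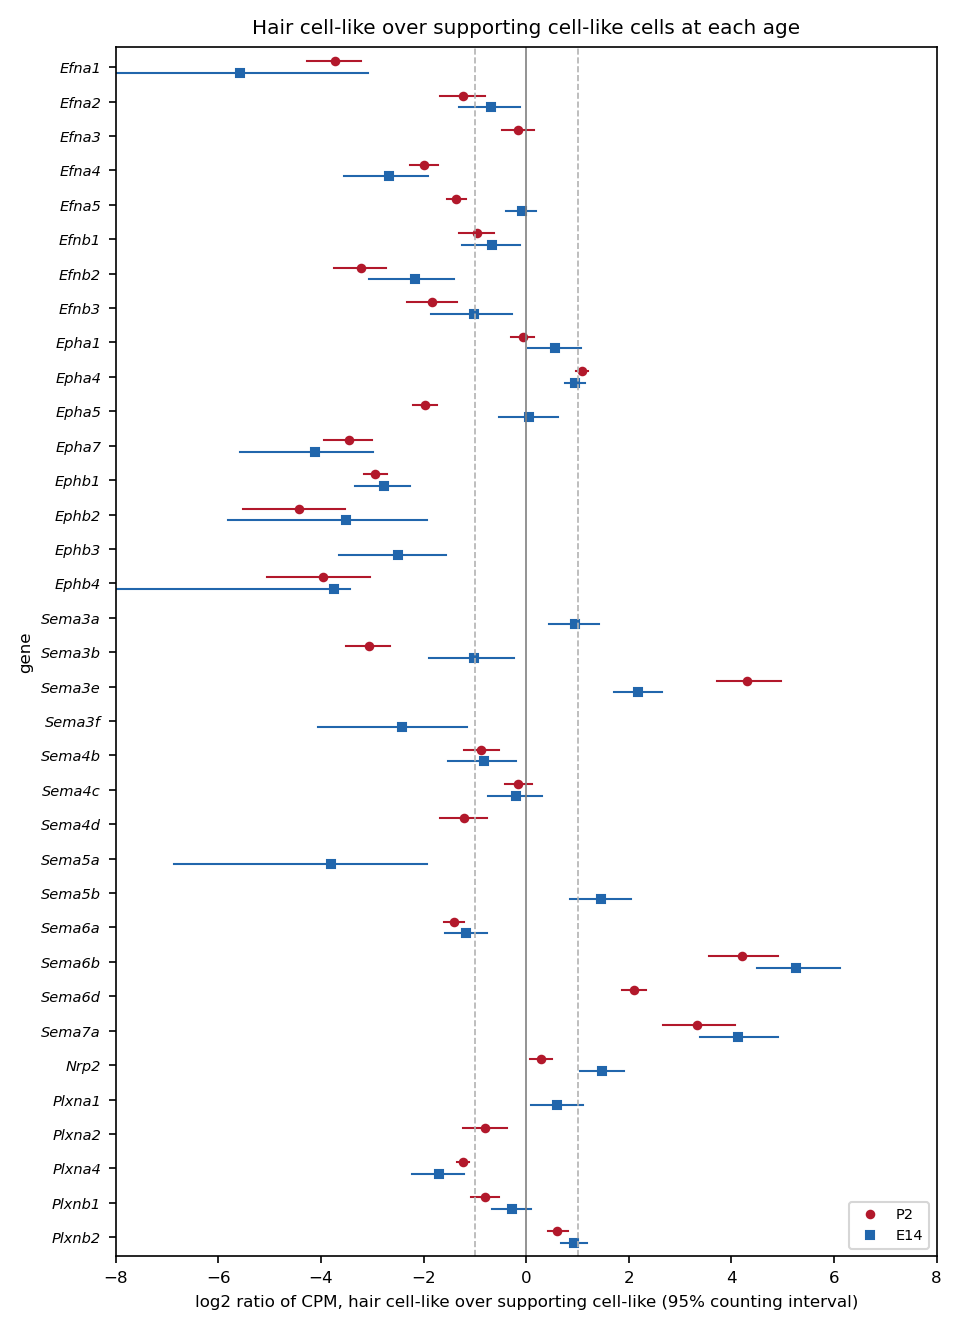
Log2 ratio of CPM, HC-like over SC-like cells, for the members compared at P2 and at E14, with 95% counting intervals and dashed lines at 2-fold. Ephb4 at E14 had no UMI in HC-like cells and stands at the floor of 3 counts, and intervals that reach the left edge extend beyond it. Sema3e, Sema6b and Sema7a lie to the right at both ages, and Ephb1, Ephb2, Ephb4, Epha7, Efna1 and Efnb2 to the left at both.

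At P2 against E14, most guidance gene levels of the HC-like cells stayed within 2-fold. Of 22 members compared, 3 were at least 2-fold higher at P2, 5 lower and 14 within, that is 36.4% called against 9.16% of 8898 genes (5.01% higher and 4.15% lower), with a median log2 ratio of 0.07 beside -0.00 over all genes. The 3 higher genes were Sema6d, Plxna4 and Efna3. Sema6d had 64.3 CPM (60.1 to 68.8) at P2 and 5.36 CPM (2.85 to 9.17) at E14, a ratio of 12 (6.98 to 22.6). Plxna4 had 62.4 CPM (58.2 to 66.8) at P2 and 14.8 CPM (10.4 to 20.6) at E14, a ratio of 4.20 (3.01 to 6.04). Efna3 had 168 UMIs (12.9 CPM) at P2 and 3 UMIs at E14, a ratio of 10.4 (3.5 to 50.9). The 5 lower genes were a pair of plexins, a pair of semaphorins and 1 ephrin. Sema5b had 2.07 CPM at P2 and 16.1 CPM at E14 (0.129, 0.0757 to 0.215), Plxna1, a plexin that binds Sema6d and pairs with neuropilins, 4.44 CPM at P2 and 18.6 CPM at E14 (0.239, 0.159 to 0.361), and Sema3a 6.82 CPM at P2 and 21.4 CPM at E14 (0.318, 0.223 to 0.456). Efna2 had 4.98 CPM at P2 and 11.5 CPM at E14 (0.431, 0.273 to 0.697). Plxnb1 had 13.2 CPM at P2 and 28.0 CPM at E14 (0.472, 0.355 to 0.635) and was the call nearest the limit, while Efna5, at 26.2 CPM at P2 and 49.5 CPM at E14 (0.529), lay just outside it. The leading receptors and the HC-side semaphorins stayed within 2-fold. Epha4 had a ratio of 1.16 (1.02 to 1.31), Sema3e of 1.24 (0.974 to 1.59), Nrp2 of 1.07 (0.835 to 1.38), Sema6b of 0.604 (0.495 to 0.741), Sema7a of 0.552 (0.422 to 0.728) and Plxnb2 of 0.567 (0.480 to 0.671).

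The HC-like cells came from clusters 6, 9, 11, 14, 15, 20, 21 and 25 at P2 and from clusters 21 and 30 at E14, which need not hold like cells. Without the P2 clusters 14 and 20, which Scg2 helps lead, the log2 ratio of Sema6d was 1.97 in place of 3.58 and that of Plxna4 1.41 in place of 2.07. With doublets kept, Plxna4 (0.96) and Sema3a (-0.62) were below the 2-fold limit, and with cells thinned to equal depth Efna3 (0.00) and Sema3a (-0.83). Sema3a was also lost with a stricter cell filter (-0.95), Plxnb1 without a cell filter (-0.94), and Efna2 (-0.83) and Plxnb1 (-0.97) with cells assigned one by one. The ratio of Efna3, 10.4 in the class, was 6.48 without a cell filter, 2.60 with cells assigned one by one, 2.31 with doublets kept and 2.28 with a stricter cell filter. The 12 mesenchymal markers summed to 14.9 CPM in HC-like cells at P2 and 229 CPM at E14, and their part in the ratios was not tested.

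In SC-like cells, Plxna4 and Epha5 led the members that were higher at P2. Of 31 members compared, 6 were higher at P2, 4 lower and 21 within 2-fold, that is 32.3% called against 13.6% of 9038 genes (8.30% higher and 5.34% lower), with a median log2 ratio of 0.10 beside 0.09 over all genes. Plxna4 had 147 CPM (140.2 to 154) at P2 and 48.3 CPM (44.3 to 52.5) at E14, a ratio of 3.05 (2.77 to 3.36). Epha5 had 56.4 CPM (52.2 to 60.8) at P2 and 13.0 CPM (11 to 15.3) at E14, a ratio of 4.32 (3.61 to 5.19). Sema3b had 34.1 CPM at P2 and 12.5 CPM at E14 (2.73, 2.25 to 3.32), and Nrp2 27.7 CPM at P2 and 11.4 CPM at E14 (2.43, 1.98 to 3.00). Sema6d was also higher, with 15.0 CPM at P2 and 6.74 CPM at E14 (2.23, 1.70 to 2.95), but its log2 ratio was below the 2-fold limit with 50 principal components (0.95), with cells assigned one by one (0.82) and at equal depth (0.98). Epha1, with 26.7 CPM at P2 and 12.3 CPM at E14 (2.18, 1.78 to 2.67), lay just inside the limit and Efna1, with 34.5 CPM at P2 and 19.6 CPM at E14 (1.76), outside it. The 4 lower genes were Sema5a (2.26 CPM at P2 and 11.6 CPM at E14, ratio 0.196), Sema3a (3.36 CPM at P2 and 11.1 CPM at E14, 0.302), Ephb3 (8.22 CPM at P2 and 21.1 CPM at E14, 0.389) and Plxna1 (4.86 CPM at P2 and 12.2 CPM at E14, 0.40). At equal depth Ephb3 (log2 ratio -0.49) and Plxna1 (-0.66) were no longer called, and with cells assigned one by one Sema5a (-0.60) and Nrp2 (0.96) were not. Epha1 was lost without a cell filter (0.90) and at Leiden resolution 2 (0.91). No ephrin was called. Ephb1, Epha4, Sema6a and Efna5, which lead their roles in SC-like cells, had ratios of 1.24, 1.05, 1.23 and 1.28. Efnb2, Efnb1 and Ephb2 were near 1 as well, with ratios of 1.04, 0.813 and 1.17. Plxna4 was higher at P2 in both sensory classes, and no member was called in opposite directions.

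The SC-like class held clusters 1, 10, 13 and 17 at P2 and clusters 9, 12, 15 and 27 at E14. Clusters 12 and 27 at E14 had 4350 CPM and 1124 CPM of Zpld1, a gene known from the ampullary cristae, against at most 4.18 CPM in the P2 clusters. Without them, Epha1 (log2 ratio 0.81) and Sema3a (-0.41) were no longer 2-fold apart and Sema5a no longer reached 10 CPM, so that 7 calls were left, 5 higher and 2 lower of 29 compared. The 9 red blood cell markers summed to 6.54 CPM at P2 and 7064 CPM at E14 in this class, and the 12 mesenchymal markers to 17.9 CPM at P2 and 948 CPM at E14. Their part in the ratios was not tested.

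**Figure D3:**
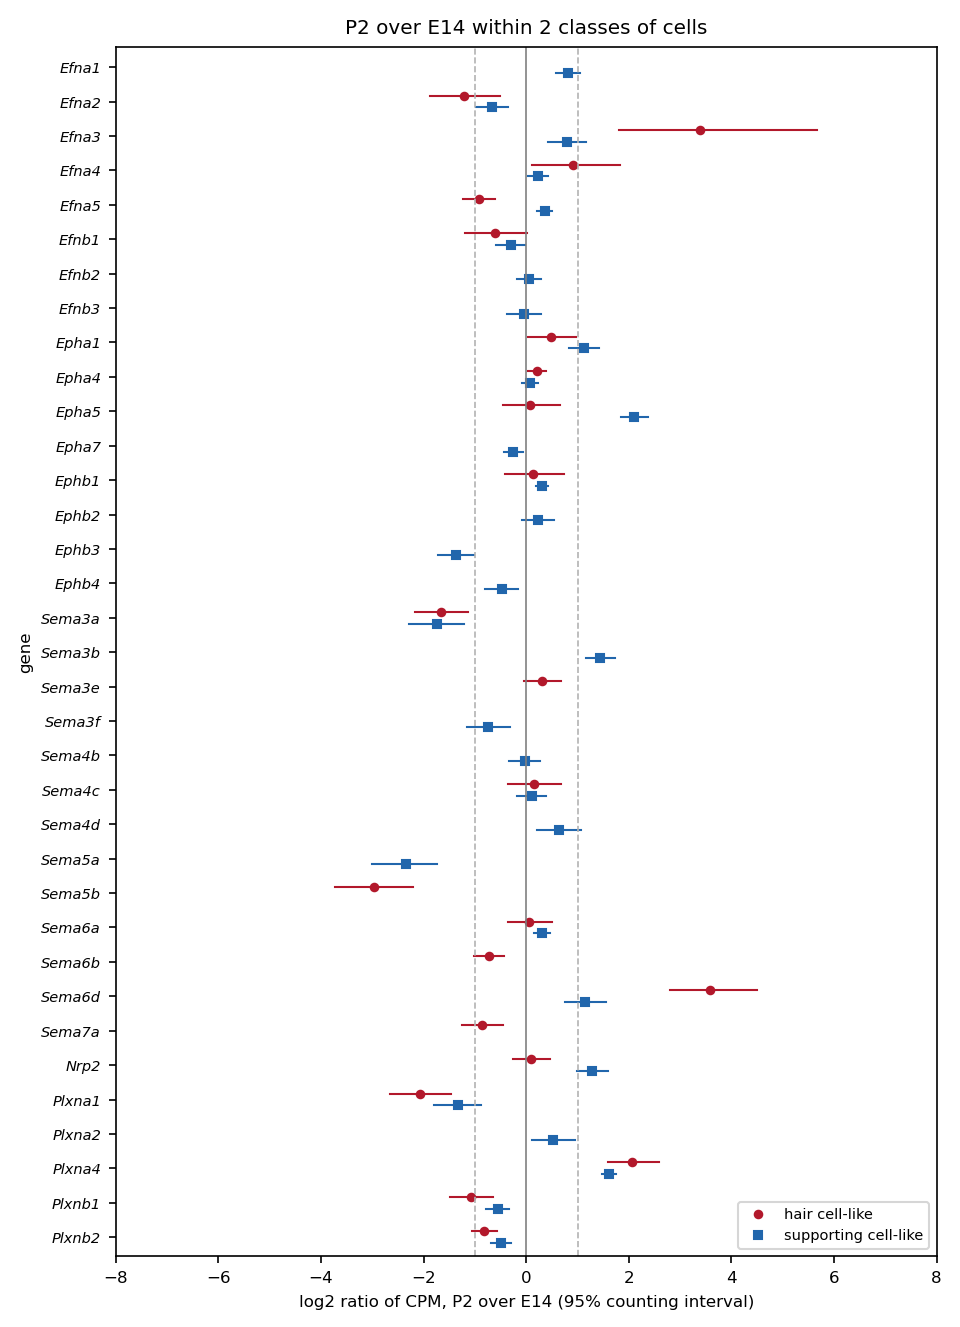
Log2 ratio of CPM, P2 over E14, within HC-like and within SC-like cells, with 95% counting intervals and dashed lines at 2-fold. Plxna4 lies to the right of the lines in both classes (ratios of 4.20 and 3.05), and Epha4 lies near 0 in both (ratios of 1.16 and 1.05).

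HC-like cells were not uniform in these genes. The spread is a description of clusters made without the members. Cluster 20 of P2 had the highest level of 21 of the 37 members with at least 20 UMIs in the class and was shallow, with 56 cells of a median of 4277 UMIs, beside 4162 UMIs in cluster 15 and 13126 to 19994 UMIs in the other 6 clusters. Some of these 21 rest on few UMIs in cluster 20, with 1 UMI for Sema5b and 2 each for Plxnb3 and Sema3b. Efna2, Epha7, Plxna1 and Sema4f had 3 UMIs each there, and Sema4d 4. Cluster 21 had the highest level of 10 members. The share of all genes highest in either cluster was not measured, so these counts are no trait of the members. The part of depth in these levels was not tested. At P2, Sema6d ran between 3.6 CPM in cluster 21 and 846 CPM (733 to 971) in cluster 20, with 259 CPM (234 to 286) in cluster 14 and 65.7 CPM in cluster 11. Cluster 20 held 1.83% of the UMIs of the class and 24.0% of its Sema6d UMIs. Plxna4 followed the same order at the top, with 368 CPM (296 to 454) in cluster 20, 182 CPM (161 to 204) in cluster 14 and 72.4 CPM in cluster 11, and 10.9 CPM in cluster 15 at the bottom. Slc17a8, a vesicular glutamate transporter, was among the leading genes of these 3 clusters. Epha1 and Epha5 were also highest in clusters 20 and 14, with 126 CPM of Epha1 and 100.5 CPM of Epha5 in cluster 20 and 72.8 CPM of Epha1 and 44.4 CPM of Epha5 in cluster 14. Sema3e had its highest level in cluster 20 as well, at 129.8 CPM (88.2 to 184), and Epha4 in cluster 11, at 189 CPM (171 to 208).

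Cluster 21, led by Hsd11b2, Pdlim4 and Eya2, carried a different set. Sema7a had 62.4 CPM (46.6 to 81.9) there, against 1.65 CPM in cluster 25, and Epha4 was at its lowest, 20.4 CPM (11.9 to 32.7). Of the members on the SC-like side at P2, Sema6a (82.8 CPM), Ephb1 (67.2 CPM), Efna4 (42.0 CPM), Efna5, Efna1 and Efnb2 were highest in cluster 21. Efna2, Epha5, Epha7, Plxna4, Sema3b and Sema4d were highest in cluster 20 and Efnb3 in cluster 6. Ephb2 and Ephb4 had too few UMIs in the class to rank. The markers of cluster 21 included 1 of SC-like cells. Cluster 25, led by Ocm, a calcium buffer of striolar HCs, had the highest Nrp2 level, 91.0 CPM (68.5 to 118), and the highest Sema3a level, 59.5 CPM (41.7 to 82.4). Sema6b stayed between 14.5 CPM and 58.6 CPM in the 8 clusters. At E14, cluster 21 had 40.7 CPM of Sema7a and 101 CPM of Epha4, and cluster 30, which Ocm also helps lead, 4.41 CPM (3 UMIs) of Sema7a and 160.4 CPM of Epha4. Plxna4 had 9.17 CPM (5.24 to 14.9) in cluster 21 and 29.4 CPM (18 to 45.4) in cluster 30.

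**Figure D4:**
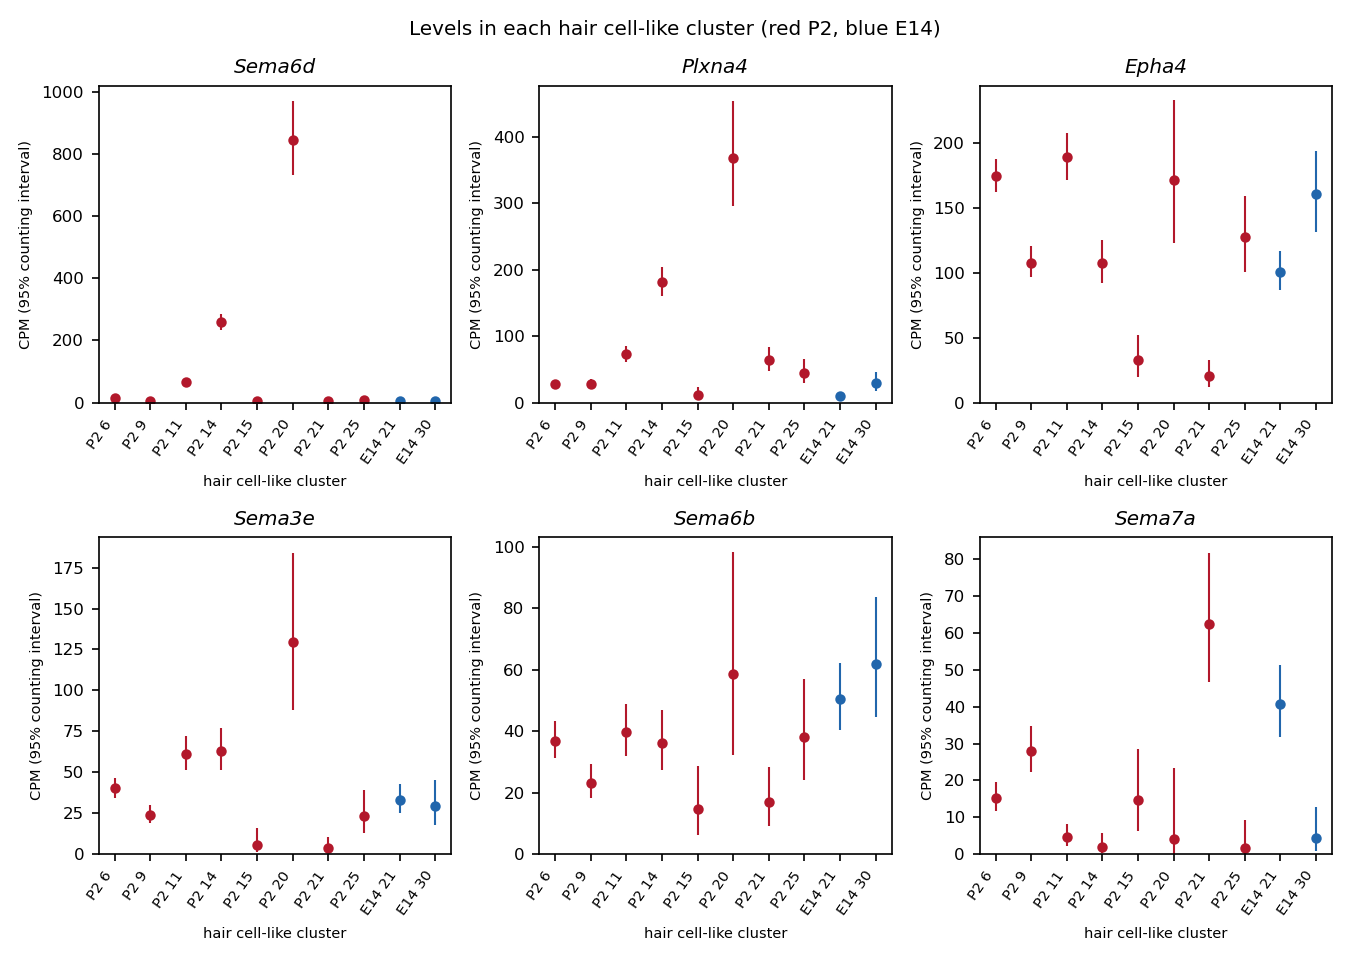
Levels in CPM, with 95% counting intervals, of selected members in each HC-like cluster at P2 (red) and E14 (blue), 1 panel per gene with its own axis. Sema6d and Plxna4 peak in clusters 20 and 14 at P2 (846 CPM and 259 CPM of Sema6d), Sema7a in cluster 21 (62.4 CPM), and Epha4 is lowest in cluster 21 (20.4 CPM).

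The 4 SC-like clusters of P2 also differed. Epha5 had 205 CPM (186 to 224) in cluster 17, led by Bmp3, and 3.72 CPM (1.60 to 7.32) in cluster 10, led by Tectb, a gene of the extracellular matrix over the epithelium. Cluster 17 held 67.6% of the Epha5 UMIs and 18.6% of all UMIs of the class, and it also had the highest Efna5 level, 131 CPM. Plxna4 had 34.8 CPM (27.4 to 43.7) in cluster 10 and between 143 CPM and 182 CPM in the other 3. Ephb1 was spread in the opposite way, with 37.9 CPM (30.2 to 46.9) in cluster 17 and between 119 CPM and 132 CPM in the other 3. Nrp2 ranged between 1.80 CPM in cluster 17 and 69.5 CPM in cluster 13.

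The shares of cells with at least 1 UMI were set at equal depth by thinning every cell to 1500 UMIs, with 6 P2 HC-like, 2 P2 SC-like, 190 E14 SC-like and 91 E14 immune-like cells left out as too shallow. Immune-like cells served as a reference, with a median depth of 3442 UMIs before thinning. In these cells 8 members reached 20 UMIs and 10 CPM, so they are no blank. They came from the E14 library alone, and the background of the P2 library was not measured. Epha4 was found in 17.1% (14.7 to 19.7) of HC-like and 8.14% (6.21 to 10.4) of SC-like cells at P2, in 15.2% (10.2 to 21.5) and 8.71% (6.87 to 10.9) at E14, and in 0.415% of immune-like cells. Plxna4 was found in 10.6% (8.70 to 12.8) of HC-like cells and 18.9% (16.0 to 22.0) of SC-like cells at P2, in 1.75% (0.363 to 5.04) and 7.12% (5.45 to 9.10) at E14, and in 1.66% of immune-like cells. The E14 HC-like share of Plxna4 was close to that of immune-like cells, and whether it is background was not tested. Sema6d was found in 10.6% (8.70 to 12.8) of P2 HC-like cells, against 2.18% (1.23 to 3.57) of P2 SC-like cells. At E14 Sema6d was found in 1.75% of HC-like and 1.10% of SC-like cells, below the 2.49% (0.919 to 5.34) of immune-like cells. Whether these shares are background was not tested either. Sema6b was found in 3.40% of HC-like and 0.291% of SC-like cells at P2 and in 5.85% and 0.245% at E14, with 0.415% of immune-like cells. Ephb1 was found in 2.19% of HC-like and 13.7% of SC-like cells at P2 and in 1.75% and 13.4% at E14. Without thinning, the shares were higher, for Epha4 69.7% of HC-like and 50.3% of SC-like cells at P2 and 72.5% and 33.7% at E14.

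Nonsensory epithelial-like cells, 92 at P2 and 447 at E14, showed the most calls between the ages. Of 32 members compared, 7 were higher at P2, 14 lower and 11 within 2-fold, that is 65.6% called against 18.2% of 9008 genes (8.77% higher and 9.40% lower), with a median log2 ratio of -0.66 beside -0.09 over all genes. The class mixed a pair of cluster types in unequal shares. At P2 it held 45 cells of a cluster with Kcne1, a potassium channel subunit of endolymph-secreting cells, among its leading genes (Kcne1-led). A further 47 cells came from a cluster with Prss56 among them (Prss56-led). At E14 it held 375 Kcne1-led and 72 Prss56-led cells. The Prss56-led clusters shared only Prss56 among their 10 leading genes, beginning with Nupr1 at P2 and Pyy at E14. Whether they hold like cells was not tested, so their ratios between the ages may set unlike cells side by side. Of the 21 calls of the class, 12 did not reach 2-fold in the same direction in Kcne1-led cells alone and 5 in Prss56-led cells alone. No count minimum was applied here, so some calls that kept 2-fold rest on few UMIs and are uninformative. In Prss56-led cells Sema3d had 1 UMI at P2 and 2 at E14, and Nrp1 had 1 at P2 and 4 at E14. Epha2 and Sema6c had 2 UMIs each in Kcne1-led cells at P2. The 12 that did not in Kcne1-led cells were Efna1, Efna2, Efnb1, Efnb3, Epha4, Epha7, Ephb2, Ephb4, Sema3b, Sema4c, Sema4g and Sema5a. The 5 in Prss56-led cells were Efnb1, Epha4, Plxnb1, Sema3b and Sema5a. Plxna4 was higher at P2 in the class (226 CPM at P2 and 57.0 CPM at E14, ratio 3.96, 3.41 to 4.61) and in both types, with 102 CPM at P2 and 48.3 CPM at E14 in Kcne1-led cells (2.10, 1.50 to 2.88) and 279.9 CPM at P2 and 103 CPM at E14 in Prss56-led cells (2.71, 2.16 to 3.43). Nrp2 was higher likewise, with 87.3 CPM at P2 and 9.69 CPM at E14 in the class (9.01, 6.60 to 12.4) and ratios of 5.01 (2.71 to 8.89) in Kcne1-led and 5.67 (3.47 to 9.76) in Prss56-led cells. Both calls depended on the classes. The log2 ratio of Nrp2 was 0.32 with cells assigned one by one, where the class held only 12 cells at P2 and 95 at E14. That of Plxna4 was 0.51 at Leiden resolution 2, where the P2 class held 453007 UMIs, as many as the Kcne1-led cluster 23 alone. Epha5 moved apart in the types, with 174 CPM at P2 and 77.0 CPM at E14 in Kcne1-led cells (2.26, 1.76 to 2.89) and 43.0 CPM at P2 and 194 CPM at E14 in Prss56-led cells (0.221, 0.156 to 0.307), beside 82.7 CPM at P2 and 95.7 CPM at E14 in the class.

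The other higher members of the class were Epha7 (89.3 CPM at P2 and 27.2 CPM at E14), Epha4 (34.0 CPM at P2 and 12.4 CPM at E14), Efna1 (64.7 CPM at P2 and 24.9 CPM at E14), Efnb1 (42.0 CPM at P2, ratio 2.10) and Sema3b (42.7 CPM at P2 and 21.1 CPM at E14). Within the types, Epha7 had a ratio of 0.290 (0.0590 to 0.867) in Kcne1-led and 2.50 (1.79 to 3.53) in Prss56-led cells, and Epha4 of 0.914 (0.600 to 1.39) in Prss56-led cells, so neither was higher in both. Efnb1 had ratios of 1.31 (0.609 to 2.53) in Kcne1-led and 1.37 (0.881 to 2.14) in Prss56-led cells and Sema3b of 1.49 (0.767 to 2.66) in Kcne1-led and 1.57 (0.984 to 2.54) in Prss56-led cells, so neither was 2-fold higher in a single type. Sema3d had the lowest ratio of the class, with 6 UMIs (4.0 CPM) at P2 and 51.0 CPM at E14 (0.0784, 0.0286 to 0.173), and 11 CPM at P2 and 60.2 CPM at E14 in Kcne1-led cells (0.183, 0.0591 to 0.432). Nrp1 followed, with 10.0 CPM at P2 and 54.3 CPM at E14 (0.184, 0.102 to 0.308), but its ratio in Kcne1-led cells, which held 338 of its UMIs at E14, was 0.484 (0.262 to 0.824), and its log2 ratio in the class was -0.60 at Leiden resolution 2. The 3 EphB receptors compared were all lower at P2, with ratios of 0.249 for Ephb3 (8.67 CPM at P2 and 34.8 CPM at E14), 0.404 for Ephb4 (14.0 CPM at P2 and 34.6 CPM at E14) and 0.429 for Ephb2 (14.7 CPM at P2 and 34.2 CPM at E14). In Kcne1-led cells the ratios were 0.45 (0.192 to 0.903) for Ephb3, 0.542 (0.244 to 1.05) for Ephb4 and 0.895 (0.491 to 1.51) for Ephb2, and in Prss56-led cells 0.433 (0.118 to 1.35) for Ephb3, 0.477 (0.217 to 0.991) for Ephb4 and 0.351 (0.125 to 0.872) for Ephb2. Sema4g (0.266), Sema4c (0.329), Sema5a (0.333), Sema6c (0.353) and Sema6a (0.379) were the lower semaphorins of classes 4 to 7, and Epha2 (0.328), Efna2 (0.396), Efnb3 (0.462) and Plxnb1 (0.495) the other lower members. Leading members within 2-fold were Efna5 (45.3 CPM at P2 and 68.3 CPM at E14), Plxnb2 (66.0 CPM at P2 and 89.0 CPM at E14), Efnb2 (34.7 CPM at P2 and 19.4 CPM at E14), Sema3c (49.3 CPM at P2 and 26.5 CPM at E14), Sema3e (27.3 CPM at P2 and 34.6 CPM at E14) and Sema4b (15.3 CPM at P2 and 15.1 CPM at E14).

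At E14, mesenchymal-like cells and the sensory epithelium-like cells, that is HC-like and SC-like cells together, carried different members of each family. Of 35 members compared, 11 were higher in mesenchymal-like cells, 10 lower and 14 within 2-fold, that is 60.0% called against 26.8% of 9532 genes (9.78% higher and 17.0% lower), with a median log2 ratio of 0.20 beside -0.07 over all genes. Nrp1 had 35.1 CPM (33.0 to 37.2) in mesenchymal-like cells and 1.95 CPM (1.29 to 2.84) in sensory epithelium-like cells, a ratio of 18 (12.3 to 27.4). The secreted semaphorins Sema3d (26.5 CPM in mesenchymal-like, 2.02 CPM in sensory cells, ratio 13.1) and Sema3a (27.8 CPM in mesenchymal-like, 12.9 CPM in sensory cells, 2.15) were on the same side. So were the transmembrane semaphorins Sema5a (43.9 CPM in mesenchymal-like, 9.68 CPM in sensory cells, 4.54), Sema6c (20.1 CPM in mesenchymal-like, 4.48 CPM in sensory cells, 4.48) and Sema6d (27.6 CPM in mesenchymal-like, 6.5 CPM in sensory cells, 4.25). Plxnd1 (10.6 CPM in mesenchymal-like, 1.73 CPM in sensory cells, 6.11) and Plxna2 (13.8 CPM in mesenchymal-like, 6.36 CPM in sensory cells, 2.18) were the plexins on that side. Ephb4 (37.9 CPM in mesenchymal-like, 13.7 CPM in sensory cells, 2.76), Efnb3 (27.2 CPM in mesenchymal-like, 12.2 CPM in sensory cells, 2.23) and Efna2 (37.5 CPM in mesenchymal-like, 17.4 CPM in sensory cells, 2.16) completed the higher calls. Plxna2 fell below the 2-fold limit with a stricter cell filter (log2 ratio 0.86), with doublets kept (0.85), with cells assigned one by one (0.99) and without the Zpld1-rich SC-like clusters (0.90). Efna2 did so with doublets kept (0.97), with cells assigned one by one (0.96) and with the mean over single cells (0.90), and Efnb3 with doublets kept, by little, and at equal depth (0.72).

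Ephb1 and Plxna4 had the lowest ratios. Ephb1 had 1.44 CPM (1.05 to 1.93) in mesenchymal-like cells and 74.3 CPM (69.9 to 79.0) in sensory epithelium-like cells, a ratio of 0.0194 (0.0141 to 0.0262), and Plxna4 1.12 CPM (0.783 to 1.56) in mesenchymal-like and 42.4 CPM (39.0 to 46.0) in sensory epithelium-like cells, a ratio of 0.0265 (0.0183 to 0.0373). Epha1 (0.546 CPM in mesenchymal-like, 13.3 CPM in sensory cells, 0.0411), Sema6b (1.16 CPM in mesenchymal-like, 10.5 CPM in sensory cells, 0.110) and Sema3b (1.44 CPM in mesenchymal-like, 11.4 CPM in sensory cells, 0.127) were also lower in mesenchymal-like cells. The other lower members were Epha4 (25.6 CPM in mesenchymal-like, 70.7 CPM in sensory cells, 0.362), Efna1 (0.379), Plxnb1 (0.383), Sema4b (0.393) and Efna5 (25.9 CPM in mesenchymal-like, 52.2 CPM in sensory cells, 0.496). At equal depth Sema4b (log2 ratio -0.90) and Efna5 (-0.67) were no longer 2-fold lower, and Efna5 was not with the mean over single cells (-0.92) or without mitochondrial, ribosomal and haemoglobin genes in the totals (-0.89). The members within 2-fold that reached 10 CPM in mesenchymal-like cells were Plxnb2 (57.0 CPM in mesenchymal-like cells, ratio 1.20), Sema6a (53.7 CPM, 1.15), Epha7 (40.7 CPM, 1.14), Efna4 (35.9 CPM, 1.15), Efnb2 (33.2 CPM, 1.48), Ephb3 (25.3 CPM, 1.40), Nrp2 (25.0 CPM, 1.67), Efnb1 (16.2 CPM, 0.855), Sema3f (15.6 CPM, 1.65), Plxna1 (15.2 CPM, 1.14), Sema4c (13.5 CPM, 0.768) and Ephb2 (11.7 CPM, 0.987). The 32 mesenchymal-like cells of P2 held only 125917 UMIs, so that the 20 UMIs set the limit there. These cells gave no member at the minimums and were not compared.

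**Figure D5:**
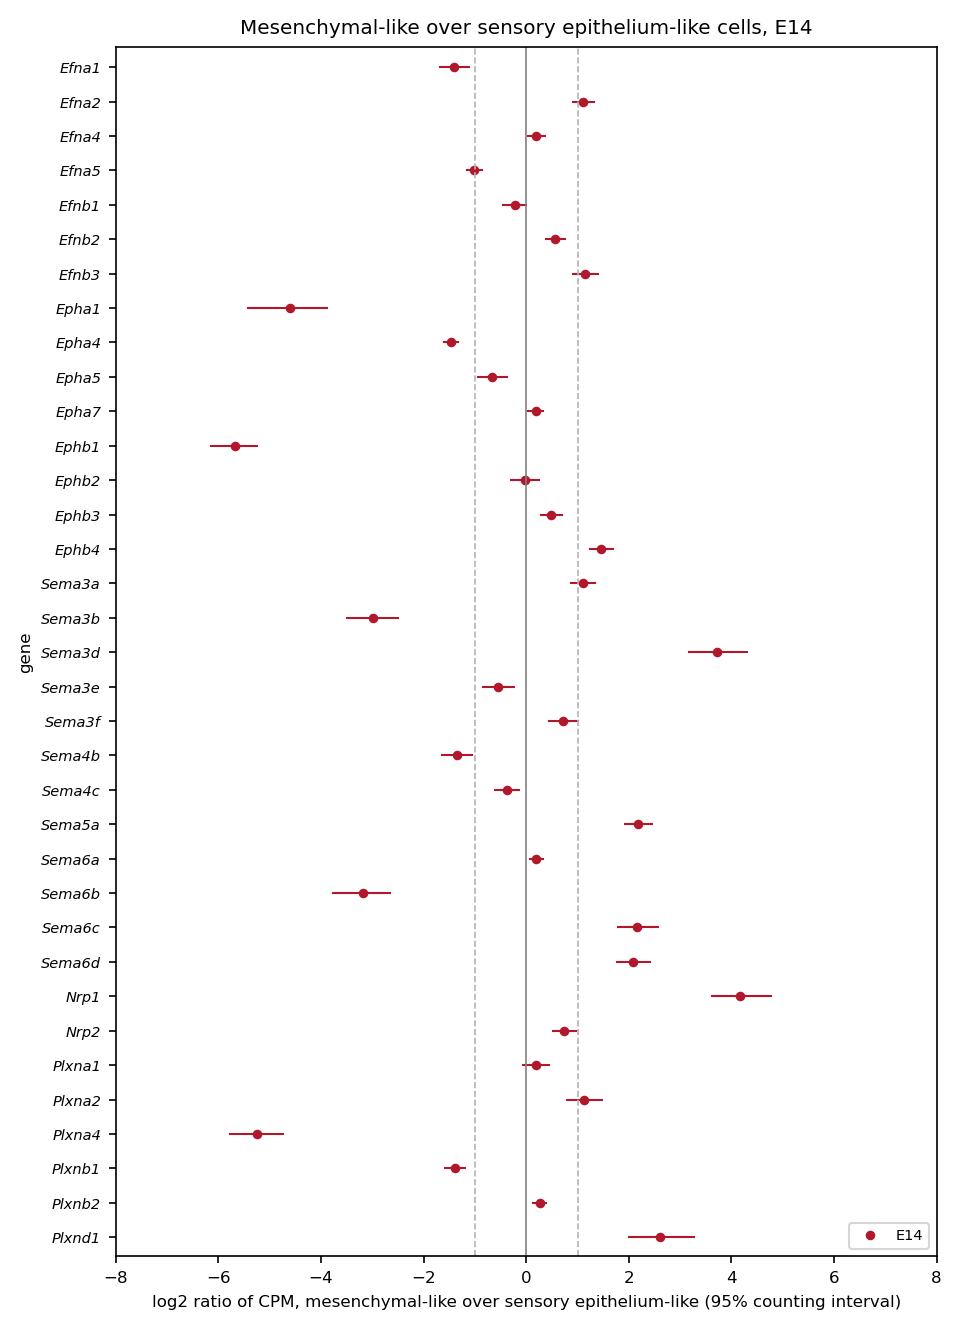
Log2 ratio of CPM, mesenchymal-like over sensory epithelium-like cells at E14, with 95% counting intervals and dashed lines at 2-fold. Nrp1 (ratio 18) and Sema3d (13.1) lie farthest to the right, and Ephb1 (0.0194) and Plxna4 (0.0265) farthest to the left.

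Leading members of the remaining E14 classes are given here, chosen after their values were seen. Nrp1 and Plxnb2 appear in more than 1 class. Red blood cell-like cells had 0 members at the minimums, and the pericyte-like class held only 203474 UMIs. Endothelial-like cells had 463 CPM (422 to 507) of Plxnd1, the vascular plexin that binds Sema3e, and 166 CPM of Efna1, 151 CPM of Nrp1, 82.4 CPM of Efnb2 and 78.4 CPM of Ephb4, while HC-like cells of the same library had 1 UMI of Plxnd1. Melanocyte-like cells had 187 CPM of Nrp1, 159 CPM of Plxnc1, the receptor of Sema7a, and 100.4 CPM of Plxna1. Glial-like cells had 146 CPM of Epha5, 88.0 CPM of Sema3c, 56.8 CPM of Epha3 and 39.4 CPM of Plxnb3. Immune-like cells had 170.3 CPM of Plxnb2 and 142 CPM of Nrp1, and pericyte-like cells 143 CPM of Sema6d and 108 CPM of Plxnb2. The highest level of Plxnd1 or Nrp1 in a P2 sensory class was 0.919 CPM, for Plxnd1 in HC-like cells.

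Genes around the same pathways were read from a pair of further lists. Of 29 other guidance genes, 2 of 10 compared at P2 were higher and 5 lower in HC-like than in SC-like cells, that is 70.0%. At E14, 4 of 12 were higher and 4 lower, that is 66.7%, while 36.9% and 37.1% of all genes were called at P2 and E14. Their median log2 ratios were -1.43 and -0.37, beside 0.07 and 0.14 over all genes. Of the other guidance genes, the 4 with the highest levels at P2 were Nrcam and Chl1, cell adhesion molecules of the L1 family, Robo1, a Slit receptor, and Flrt3. Nrcam had 86.0 CPM in HC-like and 113 CPM in SC-like cells, Chl1 2.76 CPM in HC-like and 78.1 CPM in SC-like cells, Robo1 14.4 CPM in HC-like and 75 CPM in SC-like cells and Flrt3 47.9 CPM in HC-like and 22.9 CPM in SC-like cells. Of 42 effectors of Eph receptors, ephrins, plexins and neuropilins, 5 of 29 compared at P2 were higher and 11 lower in HC-like cells. At E14, 5 of 30 were higher and 14 lower. The shares called were 55.2% at P2 and 63.3% at E14, beside the shares of all genes given above, with median log2 ratios of -0.91 and -0.96. Dpysl4, of the collapsin response mediator family that acts downstream of semaphorins, had 124 CPM in HC-like cells and 29.9 CPM in SC-like cells at P2 (4.14, 3.69 to 4.65) and 126 CPM in HC-like and 30.2 CPM in SC-like cells at E14 (4.18, 3.57 to 4.89). Sipa1l1 was on the other side, with 22.2 CPM in HC-like and 177 CPM in SC-like cells at P2.

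Between the ages, 4.76% of the effectors compared were called in HC-like cells and 6.90% in SC-like cells, against 9.16% and 13.6% of all genes. In nonsensory epithelial-like cells it was 21.4% against 18.2%. Of the other guidance genes, 22.2% were called in HC-like, 36.4% in SC-like and 50.0% in nonsensory epithelial-like cells. In HC-like cells 1 of 21 effectors was higher at P2 and none lower, and 2 of 9 other guidance genes were lower. One of them was Unc5a, a netrin receptor, with 3.6 CPM at P2 and 28.5 CPM at E14 (0.126, 0.0854 to 0.186). In SC-like cells none of 29 effectors was higher and 2 were lower. Of 11 other guidance genes in SC-like cells, 3 were higher and 1 lower, and Chl1 had 78.1 CPM at P2 and 7.01 CPM at E14 (11.1, 8.86 to 14.2). In nonsensory epithelial-like cells 1 of 12 other guidance genes was higher and 5 lower, and 2 of 28 effectors were higher and 4 lower. In mesenchymal-like over sensory epithelium-like cells at E14, 5 of 13 other guidance genes were higher and 2 lower, that is 53.8%. Of the effectors, 4 of 29 were higher and 6 lower, that is 34.5%, against 26.8% of all genes. Slit2, the ligand of Robo receptors, led the other guidance genes, with 87.8 CPM in mesenchymal-like and 5.42 CPM in sensory epithelium-like cells (16.2, 12.9 to 20.7).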

How the data were processed

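Gene by barcode UMI counts of whole numbers were used as the authors deposited them, 1 table per age. The authors made these counts with Cell Ranger 3.1.0 and used Seurat 4.1.1, per the submitters' processing notes. The notes name GRCm39 and mm10, the methods GRCm39, and which build the counts rest on was not settled. No column of another sample was used (0).

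A barcode counted as a cell from 500 genes and 1000 UMIs upward if mitochondrial genes took no more than 15% of its UMIs. Doublets were scored against 2 simulated doublets per cell and 0.8% of cells per 1000 barcodes were removed. Each age was clustered apart on 2000 variable genes without the members, with 30 principal components, 15 neighbors and Leiden resolution 1. A cluster took a name where at least 3 markers of a cell type were found in at least 10% of its cells, at least 2-fold higher than in the rest with 5 CPM added, and at 20% or more of the highest cluster. Clusters with markers of several types in equal number or more markers of another type among the leading genes, shallow clusters led by no marker, and clusters with haemoglobin or cartilage collagen genes alone stayed unnamed. This naming rule was set after marker levels had been seen.

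Summed UMIs per class gave CPM with exact Poisson intervals, and ratios with exact conditional binomial intervals, at 95%. The text names every member called in a comparison, the 2 members with the highest CPM of each role in the main classes, and up to 4 genes of the other lists. Other genes, and values within clusters, were chosen after their values were seen. Ntn3, of the 30 listed other guidance genes, was not found under that symbol. The members and lists were chosen with earlier results of these data known. The steps were tested on simulated data. Clustering used leidenalg 0.10.2, igraph 0.11.9 and scikit-learn 1.9.0, and all other steps Python 3.11.15, scipy 1.17.1, numpy 2.4.6 and matplotlib 3.10.9. The alternatives tried were other cell filters, doublets kept, other clustering settings, other count minimums and folds, other scalings, cells assigned one by one or thinned to equal depth, and classes without certain clusters.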

Additional observations from a re-analysis of the deposited data

How the results depend on the processing

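No paired analysis was possible because each age has 1 library and the labels give no replicate numbers to pair. Leaving out a replicate was not possible for the same reason. The number of members at least 2-fold apart changed by more than 1.5 times as follows. Between P2 and E14 in HC-like cells (8 members) it was 15 with a stricter cell filter, 16 with doublets kept, 4 with a minimum of 20 CPM, 17 with no minimum, 14 at 1.5-fold and 2 at equal depth. In SC-like cells (10) it was 6 with a minimum of 20 CPM, 18 with no minimum, 4 at 3-fold, 6 with cells assigned one by one and 5 at equal depth. In nonsensory epithelial-like cells (21) it was 13 at Leiden resolution 2, 10 at 3-fold, 12 with cells assigned one by one, 8 at equal depth and 12 in Prss56-led clusters alone. Between HC-like and SC-like cells it was 31 with no minimum at P2 (20), and at E14 (19) it was 7 with a stricter cell filter, 5 with doublets kept, 11 with a minimum of 20 CPM, 30 with no minimum, 7 with cells assigned one by one and 6 at equal depth. Between mesenchymal-like and sensory epithelium-like cells (21) it was 11 at 3-fold. The minimums and folds change which members can count, and equal depth leaves fewer UMIs. For the other changes the cause was not tested.

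Of 1923 log2 ratios of called members over 21 alternatives, 1641 stayed within the counting interval of the value in the text and 266 left it. Each alternative of fold or count minimum cannot move a ratio and adds 99 to the 1641 by design. Nor can leaving out clusters move a comparison that does not hold them. The other 16 ratios changed sign, all between the ages in nonsensory epithelial-like cells. Epha7 had log2 ratios of -1.30 with a stricter cell filter, -1.22 at Leiden resolution 0.5, -1.95 at resolution 2, -2.47 with cells assigned one by one and -1.79 in Kcne1-led clusters alone. Efnb3 had 0.29 at resolution 2, 0.32 with cells assigned one by one, 0.12 at equal depth and 0.047 in Kcne1-led clusters. Epha4 had -1.17 at resolution 2, -0.85 with cells assigned one by one and -0.13 in Prss56-led clusters. Ephb2 had 0.10 at resolution 2 and 0.32 with cells assigned one by one, Efna1 -0.61 with cells assigned one by one and Sema3b -0.67 at equal depth. With cells assigned one by one the P2 class held only 12 cells, and at resolution 2 it held 453007 UMIs in place of 1499935. The cause was not tested. The 5 alternatives that leave out or keep certain clusters (Zpld1-rich, shallow, Scg2-led, Kcne1-led, Prss56-led) were chosen after seeing the data. Depth limits what a small class can show, since 3 UMIs over the class correspond to 2.00 CPM in P2 nonsensory epithelial-like cells and 1.24 CPM in E14 HC-like cells, against 0.230 CPM in P2 HC-like cells.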

Other observations

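Clusters without a cell type name also carried members at high levels, given here as values chosen after they were seen. At P2, cluster 16, with 115 cells of a median of 1512 UMIs, had 289 CPM (219 to 374) of Sema6d and 106 CPM of Plxna4, and 5 HC markers stood out in it. Plxna4 was high in several further unnamed clusters of that age, with 228 CPM in cluster 27, led by Lcn2, Wnt3 and Sfrp5, 215 CPM in cluster 19, led by Scgb1c1, 182 CPM in cluster 12 and 163 CPM in cluster 4, led by Itgbl1. Epha5 had 171 CPM in cluster 19, 139 CPM in cluster 27 and 103 CPM in cluster 3, and Efna5 106 CPM in cluster 7. At E14, unnamed cluster 11, also with Sfrp5 and Wnt3 among its leading genes, had 142 CPM of Plxna4 and 123 CPM of Sema3e, and cluster 8, led by Osr1, had 121 CPM of Epha7 and 80.2 CPM of Epha4. Within the mesenchymal-like cells of E14, cluster 19, led by Aspn, had 316 CPM of Sema3d and 104 CPM of Nrp2, against 26.5 CPM of Sema3d and 25.0 CPM of Nrp2 in the whole class. Unnamed cluster 5 of P2, led by Ocm, had 239 cells of a median of 1360 UMIs, and 7 HC markers stood out in it. Which cells the unnamed clusters hold was not tested.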
